A study of Mus musculus with 6 samples.

Results

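Choline is broken down to glycine by a short mitochondrial and cytosolic route, and 7 mouse genes of this route were followed here: Chdh, Bhmt, Bhmt2, Dmgdh, Sardh, Pipox and Gnmt. The genes were chosen by name because the transcript of Sardh was strongly lower in small intestinal organoids treated with MMK-1, so the values of Sardh are given as a description with no test. Of the 7 genes, 5 have a row among the 21397 genes of the table, and Dmgdh and Bhmt2 were not analysed here. A mean of at least 1 FPKM (fragments divided by gene length and library total), the level required for the main test, was reached by 3 of them: Sardh, Pipox and Chdh. The organoids were grown from ileal crypts of Fpr2f/f mice, whose Fpr2 alleles are flanked by loxP sites, and which served in the study as mice with an intact receptor. They were cultured for 5 days with MMK-1, a synthetic peptide agonist of formyl peptide receptor 2, or with 0.1% DMSO as the vehicle control. The protocol gives the dose of MMK-1 as 1 μM, whereas the treatment label of the same samples reads 1 mM, and the protocol's value was taken as the dose. There were 3 libraries per group, each described in the study as organoids of 3 mice, and the age of the mice is not in the labels.

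Choline dehydrogenase (Chdh), on the inner mitochondrial membrane, oxidises choline to betaine aldehyde, which aldehyde dehydrogenases convert to betaine. Betaine-homocysteine methyltransferases (Bhmt and Bhmt2) pass a methyl group on to make methionine, Bhmt from betaine, which leaves dimethylglycine. Dimethylglycine dehydrogenase (Dmgdh) and sarcosine dehydrogenase (Sardh) then remove the remaining methyl groups in the mitochondrial matrix, handing the one-carbon units to folate and the electrons to the electron transfer flavoprotein. Sarcosine is also oxidised in peroxisomes by Pipox, which acts on pipecolic acid as well, and is formed from glycine and S-adenosylmethionine by glycine N-methyltransferase (Gnmt). The route is best known from liver and kidney.

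Stretches of the RefSeq start-site windows of the 3 well-expressed genes are shown because these genes were all lower with MMK-1. The windows are on GRCm38.p6 and reach from 250 bases before to 50 after each start, and the stretches are written 5′ to 3′ on the strand of the gene. For Sardh (minus strand, chr2:27247415-27247553) and Chdh (plus strand, chr14:30008897-30008999) the longest run of the upstream bases outside annotated exons is shown, 139 of 183 such bases in Sardh and all 103 in Chdh. The RefSeq start of Sardh lies 1034 bases inside the GENCODE bounds of the gene given with its values, so the stretch shown lies within the gene in GENCODE, and that of Pipox lies 224 bases inside. For Pipox (minus strand, chr11:77893839-77893867) 29 bases around 1 match are shown, which lies just after the start site in the first annotated exon. Capitals mark AGGTCA, the nuclear receptor half-site, in Sardh. In Chdh they mark each CG, and in Pipox the reverse complement of CAAAGTCCA, a sequence bound by HNF4.
Sardh: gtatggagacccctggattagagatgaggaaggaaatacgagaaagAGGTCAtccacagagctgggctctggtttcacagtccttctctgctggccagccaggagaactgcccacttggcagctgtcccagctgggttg
Chdh: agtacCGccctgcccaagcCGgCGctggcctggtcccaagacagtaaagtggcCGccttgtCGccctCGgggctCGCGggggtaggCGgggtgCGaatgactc
Pipox: ctagtttagcTGGACTTTGcctccctcct

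The windows of the 3 genes differed in base composition. That of Chdh held 26 CG dinucleotides and was 70.3% G or C, against 4 CG and 59.0% in Sardh and 3 CG and 54.3% in Pipox, where the median of all 32851 windows was 7 CG and 52.7%. The upstream part of that Chdh window reaches into the neighbouring gene Il17rb, which lies 127 bases from Chdh. Chdh has a further 2 windows, with 4 CG each. On either strand, AGGTCA was present in 16.3% of all windows, and among the members in those of Sardh, Bhmt and Gnmt. CAAAGTCCA was present in 0.475% of all windows, and among the members in that of Pipox. The letters TGANTCA, which AP-1 binds, were in the first window of Chdh and in 7.81% of all windows. GTTAAT, an HNF1 half-site (7.10% of windows), TTTATNG of the CDX factors (10.9%), TTTCNNTTT of interferon-response elements (10.6%) and TATAAA (13.6%) were in none of the members' 7 windows. CANNTG, the E-box, was in 72.3% of all windows and in at least 1 window of each member. These are matches of letters and do not show binding.

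The total of each library, computed from the FPKM values, was between 35512739 and 37537463 fragments. MMK-1 replicate 3 stood apart, with a chi-square per degree of freedom, over the genes, of 36.6 and 31.3 against the other 2 MMK-1 libraries, where the pairs within either group otherwise gave 2.83 to 4.97. The log2 values of Sardh, Chdh, Pipox and Gnmt are therefore also given without it. In the limma test across 10551 genes, 24.7% of the genes passed an adjusted p of 0.05 as lower in the MMK-1 libraries and 48.5% as higher. With a fold of at least 2 besides, 3.65% were lower and 3.39% were higher. The groups did not overlap in 76.8% of the genes tested. After scaling by the upper quartile of each library, the share of calls that were higher went from 66.3% to 53.9%, and from 48.2% to 35.9% among those with a fold of at least 2. That scaling moved the log2 fold change of the median tested gene from 0.13 to 0.036.

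Of the members other than Sardh, 2 were tested, and both were lower with MMK-1: Pipox to 49.4% and Chdh to 81.0% of the control level. With 2 genes this count cannot be read against the background share of 24.7%. Gnmt, which lay far below the level required for the test, was higher, and Bhmt was at the limit of detection in both groups. Sardh was nearly absent from the MMK-1 libraries.

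**Figure D1:**
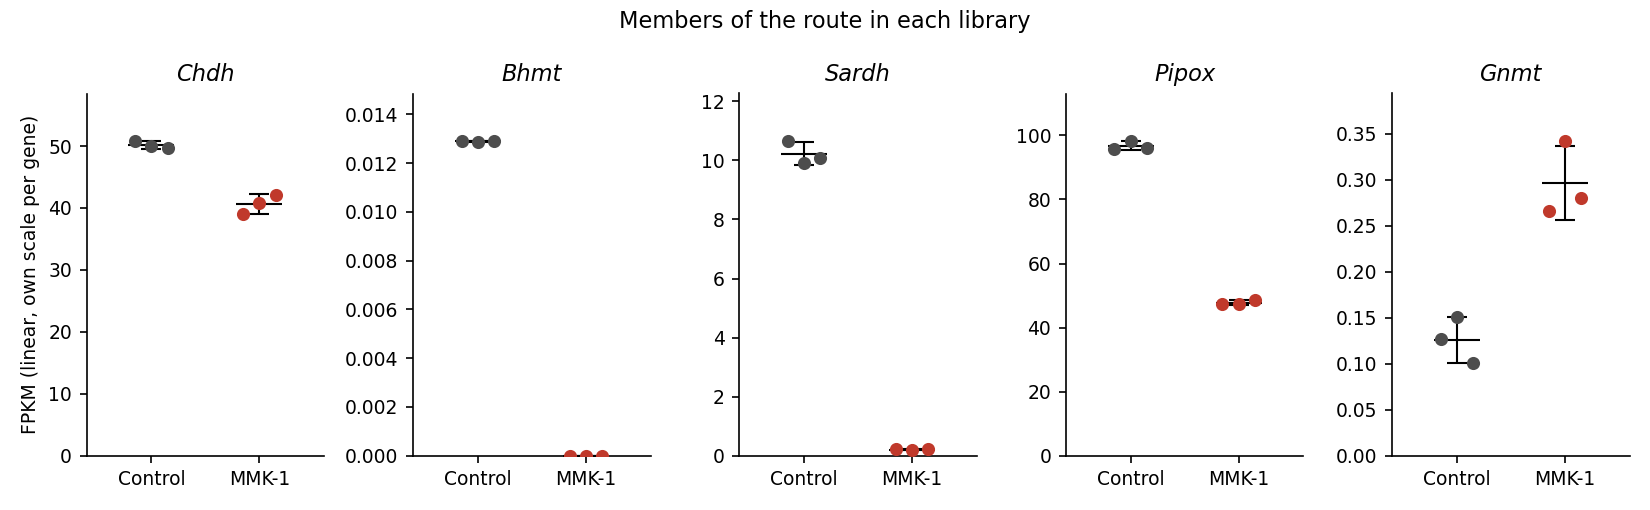
FPKM (y axis, linear from 0, its own scale for each gene) of the 5 members in each control (grey) and MMK-1 (red) library. Points are libraries, with mean and SD in black. The MMK-1 points lie below all controls for Chdh, Sardh and Pipox and above them for Gnmt, and the Bhmt values of controls are of 1 fragment each.

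Chdh (NCBI gene 218865, chromosome 14, 30009023 to 30040527 in GENCODE on GRCm38) starts the route and was among the more abundant transcripts. Its FPKM was 50.9, 50.0 and 49.7 in the controls and 39.0, 40.8 and 42.1 with MMK-1. The groups did not overlap, and the gap between them was larger than the range within either. The mean fell from 50.2 ± 0.615 (SD, n = 3) to 40.6 ± 1.59 (SD, n = 3). The log2 fold change of FPKM + 1 was -0.30 (standard error (SE) 0.0421, 95% interval -0.39 to -0.20, limma adjusted p = 0.00022). These levels rest on 8152 to 11221 fragments per library, so the spread between libraries and not counting sets the error. Of the genes tested, 16.6% had a lower fold change, so that Chdh was not among the strongly changed genes. Without MMK-1 replicate 3 the log2 fold change was -0.32. The 3′ part of Chdh overlaps Cacna1d on the opposite strand, which was at 0.00927 to 0.0244 FPKM in all libraries, and whether the counting used strand is not given in the sources used here.

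Betaine aldehyde, the product of Chdh, is oxidised by the aldehyde dehydrogenases Aldh9a1 and Aldh7a1, and both genes were also lower. Aldh9a1, which acts on several aminoaldehydes, was at 174, 170 and 176 FPKM in controls and at 83.8, 82.9 and 89.5 with MMK-1. Its log2 fold change was -1.01 (SE 0.0420, limma adjusted p = 1.4e-07). Aldh7a1, which also serves lysine breakdown, was at 5.63, 5.36 and 5.13 FPKM and at 3.45, 3.28 and 3.48 with MMK-1, a log2 fold change of -0.53 (SE 0.0523, limma adjusted p = 2.3e-05). Neither gene had overlapping groups, and Aldh9a1 fell further than Chdh on the same scale.

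Bhmt (NCBI gene 12116, chromosome 13, 93616675 to 93637961) takes betaine on to dimethylglycine. It was listed at 0.0129 FPKM in each control library, which is 1 fragment each, and at 0 in each MMK-1 library. Both groups lie under the floor of 3 fragments, so no fold is given, and a difference was not detectable at this depth. Bhmt, Bhmt2 (93655720 to 93674302) and Dmgdh (93674433 to 93752833) lie in a row within 136159 bases of chromosome 13. Methionine synthase (Mtr), which remethylates homocysteine with folate in place of betaine, was at 0.855, 0.944 and 0.794 FPKM in controls and at 1.10, 0.866 and 1.12 with MMK-1, with overlapping groups. These are low levels, but they rest on 290 to 407 fragments per library, against at most 1 for Bhmt.

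Sardh (NCBI gene 192166, chromosome 2, 27188393 to 27248337) converts sarcosine to glycine in the mitochondrial matrix. Its FPKM was 10.7, 9.92 and 10.1 in the controls and 0.221, 0.177 and 0.217 with MMK-1. All MMK-1 libraries were far below all controls and close to each other. The controls held 1884, 1756 and 1778 fragments of the gene and the MMK-1 libraries 37, 30 and 38. The mean fell from 10.2 ± 0.392 (SD, n = 3) to 0.205 ± 0.0243 (SD, n = 3), which left 2.00% of the control level, 49.9-fold less, with a 95% counting interval of the MMK-1 to control ratio of 0.0164 to 0.0243. On the log2(FPKM + 1) scale the difference was -3.22, which understates the change of a gene that falls below 1 FPKM, and with a pseudocount of 0.1 it was -5.08. Among the genes tested, 3 had a lower plain ratio. In MMK-1 libraries Sardh was still above the floor of 3 fragments, so it was detected in each of them. Without MMK-1 replicate 3 the log2 difference was -3.23. The antisense gene Sardhos overlaps Sardh and was not analysed here.

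Pipox (NCBI gene 19193, chromosome 11, 77880615 to 77894096), the peroxisomal sarcosine and pipecolic acid oxidase, was the most abundant member per length in both groups. Its FPKM was 95.8, 98.4 and 96.0 in the controls and 47.4, 47.3 and 48.6 with MMK-1. The libraries of each group were close to each other, and the groups did not overlap. The mean fell from 96.7 ± 1.41 (SD, n = 3) to 47.8 ± 0.740 (SD, n = 3), which left 49.4% of the control level. The log2 fold change of FPKM + 1 was -1.003 (SE 0.0365, 95% interval -1.09 to -0.92, limma adjusted p = 6.9e-08), and -1.02 without MMK-1 replicate 3. A fold of 2 lies inside this interval, so Pipox is counted among the 3.65% of genes lower by at least 2-fold only by a small margin. No other annotated gene overlaps Pipox.

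Both sarcosine-oxidising genes were thus lower, but at different levels. In controls Pipox stood at 96.7 and Sardh at 10.2 FPKM, and with MMK-1 at 47.8 and 0.205. The order of the detected members per length in controls was Pipox, Chdh, Sardh and Gnmt, with no overlap between neighbours. With MMK-1 it was Pipox, Chdh, Gnmt and Sardh. The last pair in that order, Gnmt at 0.267 to 0.343 and Sardh at 0.177 to 0.221 FPKM, rested on 10 to 13 fragments of Gnmt.

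Gnmt (NCBI gene 14711, chromosome 17, 46725664 to 46729168) forms sarcosine by methylating glycine. It was at 0.126, 0.151 and 0.101 FPKM in the controls and at 0.267, 0.343 and 0.280 with MMK-1. All MMK-1 libraries were above all controls, on 5, 6 and 4 fragments for the controls and 10, 13 and 11 for MMK-1. The plain ratio of the means was 2.35, with a 95% counting interval of 1.24 to 4.64. In the limma test over every gene above 0, where 28.1% of genes passed as higher and 15.2% as lower, Gnmt was higher by a log2 fold change of 0.20 (SE 0.0287, adjusted p = 0.0024). That value is small because the pseudocount of 1 is larger than the level of the gene. Without MMK-1 replicate 3 the log2 fold change was 0.21 (limma adjusted p = 0.0069). The non-coding gene Gm26904 overlaps Gnmt on the opposite strand, and whether the counting used strand is not given in the sources used here. The exact two-sided permutation p of Chdh, Pipox and Gnmt was 0.1 each, the smallest that 3 libraries against 3 allow.

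Carriers that bring sarcosine and betaine into epithelial cells were among the genes around the route with the largest differences. Of 3 tested, 2 were lower and 1 was higher. Slc36a1, a proton-coupled carrier of glycine, sarcosine and betaine, was at 23.6, 24.4 and 23.1 FPKM in controls and at 5.47, 5.26 and 5.41 with MMK-1, a log2 fold change of -1.95 (SE 0.0432, limma adjusted p = 5.1e-09). Slc6a20a, a sodium-dependent carrier of proline, sarcosine and betaine, was at 61.0, 61.0 and 64.2 FPKM and at 17.4, 18.7 and 20.2, a log2 fold change of -1.68 (SE 0.0573, limma adjusted p = 5.1e-08). Slc38a2, a sodium-coupled carrier of small neutral amino acids that can also take up betaine, was higher, at 30.3, 30.3 and 29.9 FPKM in controls and 87.7, 86.9 and 72.1 with MMK-1. Its log2 fold change was 1.41 (SE 0.0718, limma adjusted p = 4.5e-07), and MMK-1 replicate 3 had the lowest of the 3 MMK-1 values.

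Choline supply did not move one way. Of 6 tested choline transporters, 2 were lower and 2 were higher, with a median log2 fold change of 0.058, which was -0.050 after upper-quartile scaling. Without the filter on low values 3 were lower and 2 were higher, with a median of 0.0007. Slc44a2, a choline transporter-like protein, was the only tested one past a fold of 2. It went from 0.723, 0.858 and 0.903 FPKM in controls to 2.88, 2.76 and 2.94 with MMK-1, a log2 fold change of 1.08 (limma adjusted p = 9.4e-07). Its control mean was 0.828 FPKM, so only its MMK-1 libraries brought it to the level for the test. Its place among the tested genes is therefore no support. In the test over every gene above 0 its log2 fold change was also 1.08 (limma adjusted p = 6.2e-05). Flvcr2, another choline transporter, had a mean under the level for the test and is named after its values were seen. The 3 control libraries held 105, 136 and 121 of its fragments, while the 3 MMK-1 libraries held 18, 22 and 30, or 19.9% of the control level (ratio 0.199, counting interval 0.153 to 0.259), and its log2 fold change was -0.70 in the test over every gene above 0 (limma adjusted p = 0.00022). Of 5 tested genes that phosphorylate choline or build phosphatidylcholine, 2 were lower and 2 were higher. One of the higher calls, Chpt1, a cholinephosphotransferase named after its values were seen, was close to the threshold (log2 fold change 0.45, SE 0.178, limma adjusted p = 0.0463). It was at 16.8, 15.9 and 16.6 FPKM in controls and at 28.1, 26.6 and 15.8 with MMK-1, so the groups overlapped through MMK-1 replicate 3, and without that library its log2 fold change was 0.70. The call was lost in 8 of 12 alternatives, among them leaving out any 1 of the other 5 libraries, upper-quartile scaling (limma adjusted p = 0.135) and no filter on low values (limma adjusted p = 0.153). Choline kinase Chka was lower by a log2 fold change of -0.20 (limma adjusted p = 0.0023), and Pemt, which methylates phosphatidylethanolamine, had a value of 0.18 that did not pass the test (limma adjusted p = 0.0651). Of 6 tested genes that release choline from phospholipid, 4 were lower and 1 was higher, beside 24.7% lower and 48.5% higher among all genes tested.

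**Figure D2:**
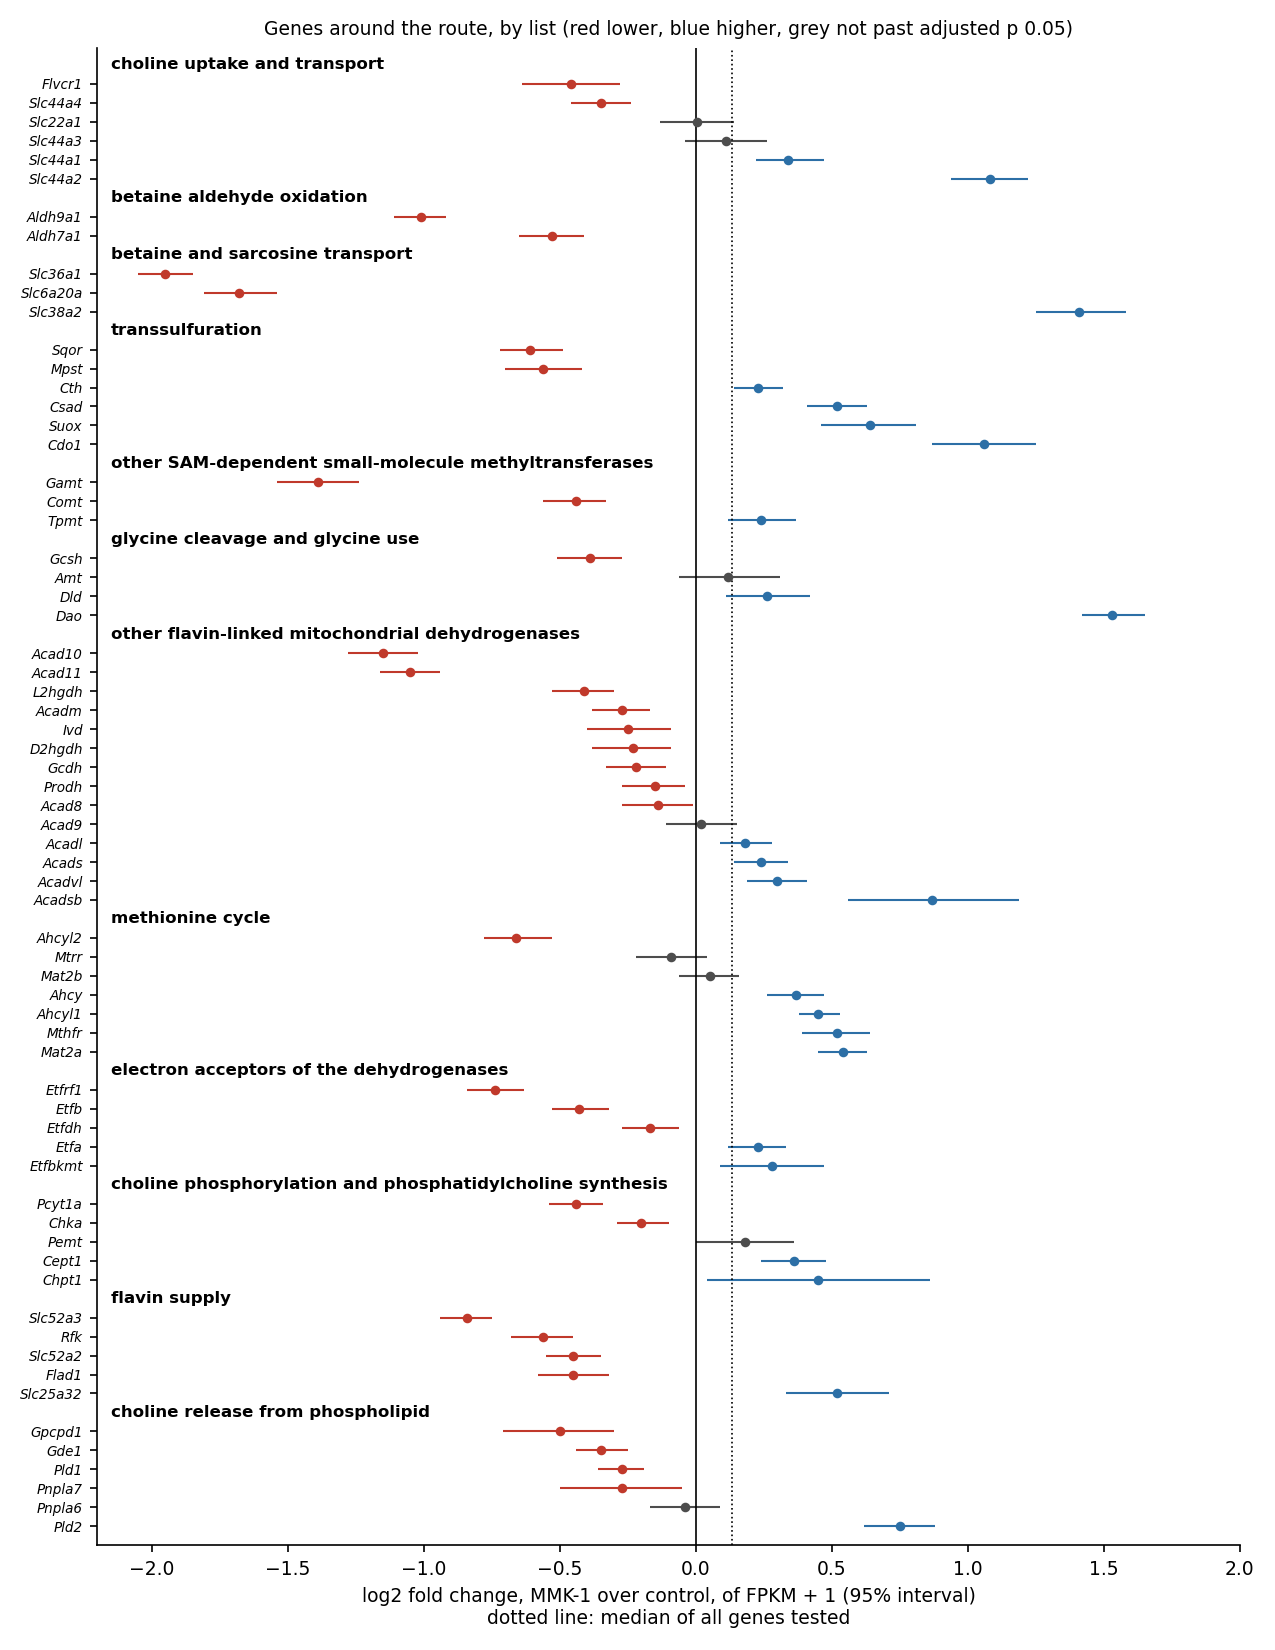
Log2 fold change of FPKM + 1 (x axis, MMK-1 over control, with 95% interval) of the tested genes around the route, grouped by list. Red genes passed the test as lower and blue genes as higher, grey genes were not past it, the solid line is 0 and the dotted line is the median of all genes tested, 0.13. Slc36a1 at -1.95 and Dao at 1.53 lie at the ends.

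Sardh and Dmgdh pass their electrons to the electron transfer flavoprotein (Etfa and Etfb) and from there to its ubiquinone oxidoreductase (Etfdh). The subunit genes differed in direction. Etfb was lower (log2 fold change -0.43, limma adjusted p = 3.6e-05), Etfa was higher (0.23, limma adjusted p = 0.0022) and Etfdh was lower (-0.17, limma adjusted p = 0.0117). The call of Etfdh is close to the threshold, with an adjusted p of 0.0502 without control replicate 2. In the list of 5 genes that holds these acceptors, 3 were lower and 2 were higher. Of 5 genes of flavin supply, which provide the FAD of these dehydrogenases, 4 were lower and 1 was higher, with a median of -0.45. Among all genes tested, 24.7% were lower and 48.5% were higher, with a median of 0.13. A list of other flavin-linked mitochondrial dehydrogenases, most of them acyl-CoA dehydrogenases that use the same flavoprotein, had 9 genes lower and 4 higher of 14 tested, with a median of -0.19. The list also holds the proline dehydrogenases Prodh and Prodh2, which pass electrons to ubiquinone directly. Without them, a choice made after seeing the data, 8 were lower and 4 higher of 13 tested, with a median of -0.22. Among them Acad10 (-1.15) and Acad11 (-1.05) were past a fold of 2.

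The methionine cycle, which takes up the methyl group that Bhmt transfers and supplies Gnmt with S-adenosylmethionine, had 4 genes higher and 1 lower of 7 tested, with a median of 0.37 beside 0.13 for all genes tested. With 7 genes, 4 higher is near the 48.5% of all tested genes that were higher, and after upper-quartile scaling the list had 4 higher and 2 lower with a median of 0.26. Without the filter on low values its median was 0.12, beside 0.010 for all genes. Mat2a, the S-adenosylmethionine synthetase subunit of tissues other than liver, was at 32.8, 33.9 and 34.2 FPKM in controls and at 50.1, 50.1 and 48.3 with MMK-1 (log2 fold change 0.54, limma adjusted p = 3.6e-06). Its liver counterpart Mat1a had at most 1 fragment in any library. Ahcy, which hydrolyses S-adenosylhomocysteine, was higher by 0.37 (limma adjusted p = 0.00012).

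Homocysteine also leaves the cycle by transsulfuration, where 4 genes were higher and 2 were lower of 6 tested. Of all genes tested, 48.5% were higher and 24.7% were lower. Cbs, the first enzyme of that path, was below the level required for the test, with 6, 5 and 13 fragments among the controls and 82, 117 and 105 in the MMK-1 libraries, and passed the test over every gene above 0 (log2 fold change 0.91, limma adjusted p = 0.00021). Cysteine dioxygenase Cdo1 was higher (1.06, limma adjusted p = 6.2e-06). Of 4 other tested methyltransferase genes that use S-adenosylmethionine, 2 were lower and 1 was higher, and Gamt, which makes creatine, was lower (-1.39, limma adjusted p = 3e-07).

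Glycine, the end product of the route, is broken down by the mitochondrial cleavage system, whose decarboxylase Gldc had at most 2 fragments in any library. Of 5 tested genes that cleave or use glycine, Gamt again included, 2 were lower and 2 were higher. Without the filter on low values 4 were lower and 2 were higher, and the median of the list went from 0.12 to -0.057. D-amino acid oxidase Dao was higher, from 3.63, 3.99 and 3.72 FPKM to 12.3, 12.9 and 13.2 (log2 fold change 1.53, limma adjusted p = 4.4e-08). Over all 12 lists together, 34 genes were lower and 24 were higher of 66 tested, beside 24.7% lower and 48.5% higher among all genes tested. Their median was -0.15, or -0.043 without the filter on low values and -0.24 after upper-quartile scaling, and without MMK-1 replicate 3 the counts were also 34 and 24.

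The libraries held the markers of small intestinal epithelium, and all 10 epithelial markers were above the level required for the test, with 4 lower, 4 higher and a summed FPKM of 4086 to 4122 in controls and 2933 to 3167 with MMK-1. Markers of several epithelial cell types differed between the groups. Of 21 tested enterocyte markers, 19 were lower and 2 were higher, and their summed FPKM went from 10678 to 10803 in controls down to 5812 to 6215 with MMK-1. All 11 tested stem cell markers were higher, with a summed FPKM of 96.1 to 98.4 in controls and 461 to 486 with MMK-1, and all 7 tested Paneth cell markers were higher, at 449 to 494 and 1422 to 1556. In bulk samples, fewer cells of a type and less RNA of a gene in each cell cannot be told apart. The part of cell type makeup in the values of Sardh, Pipox and Chdh was not tested.

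Among other cell types, goblet cell markers had 6 of 8 higher and 2 lower, with sums of 1838 to 1984 and 1980 to 2161. Of these, Zg16, at 32.1% of its control level, was the one past a fold of 2. Enteroendocrine markers had 7 of 9 higher, with sums of 312 to 329 and 448 to 458. The 8 tuft cell markers summed to at most 2.62 FPKM. Liver and kidney express this route strongly, and their markers were low. Of 8 hepatocyte markers in the table, 5 stayed under 0.2 FPKM in every library, and nearly all of the summed 12.8 to 24.1 FPKM was Ttr, which was lower with MMK-1. The 3 kidney proximal tubule markers in the table summed to at most 0.117 FPKM. Leukocyte markers (sums of 6.21 to 6.74 in controls and 2.47 to 3.32 with MMK-1) and those of fibroblasts and endothelium (4.76 to 5.34 and 3.50 to 5.12) were low in all libraries.

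**Figure D3:**
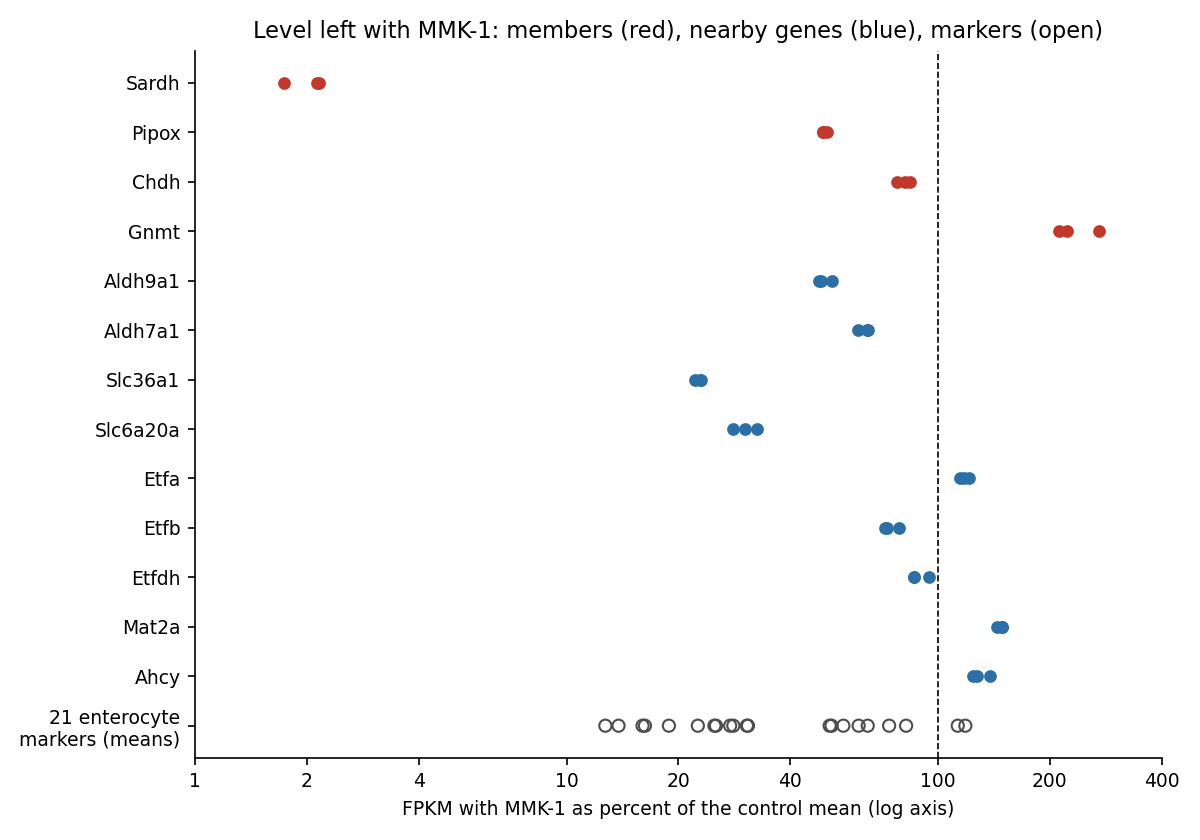
Level with MMK-1 as percent of the control mean (x axis, log scale, dashed line at 100). Each red (members) or blue (genes around the route) point is 1 MMK-1 library, and each open circle is the mean of 1 enterocyte marker. Sardh, chosen for its fall, lies near 2%, and the 21 markers span 12.7% to 118%.

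The values of the members beside these markers are a description, since Sardh was chosen for its fall. The lowest of the 21 enterocyte markers, Mep1b, kept 12.7% of its control level, and their median was 30.6%, while Sardh kept 2.00%. Genes outside the panel also kept less than Mep1b, among them Slc15a1 (7.43%) and Ces1g (1.65%), so a place below the 21 markers is not particular to Sardh. Pipox, at 49.4%, had 12 markers below it. Chdh, at 81.0%, lay near the upper end of the markers, between Slc5a1 at 73.8% and Apoa4 at 82.0%.

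The genes whose pattern over the 6 libraries was most like that of Sardh were looked for among genes with a mean of at least 1 FPKM, by the root mean square distance of log2(FPKM + 1) centred on each gene's own mean. The 5 nearest were Aldh1a1, a retinal dehydrogenase, at a distance of 0.105, Slc15a1, the intestinal peptide transporter, at 0.113, the carboxylesterase Ces1g at 0.124, the brush-border peptidase Ace at 0.124 and the carboxylesterase Ces1f at 0.130. Their levels differed widely, from 8.04 FPKM for Ces1g to 435 for Aldh1a1 in controls. With MMK-1, Aldh1a1 kept 12.1%, Slc15a1 7.43%, Ace 11.8% and Ces1f 12.3% of the control level, so these genes are alike on the scale with a pseudocount more than by plain ratio. Ces1g kept 1.65%, with 9 to 13 fragments in the MMK-1 libraries. Ces1f and Ces1g belong to 1 gene family, and how reads that match more than 1 gene were counted is not given in the sources used here. Among the members, Pipox ranked 372 and Chdh 1735 in likeness to Sardh, with distances of 1.11 and 1.46.

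**Figure D4:**
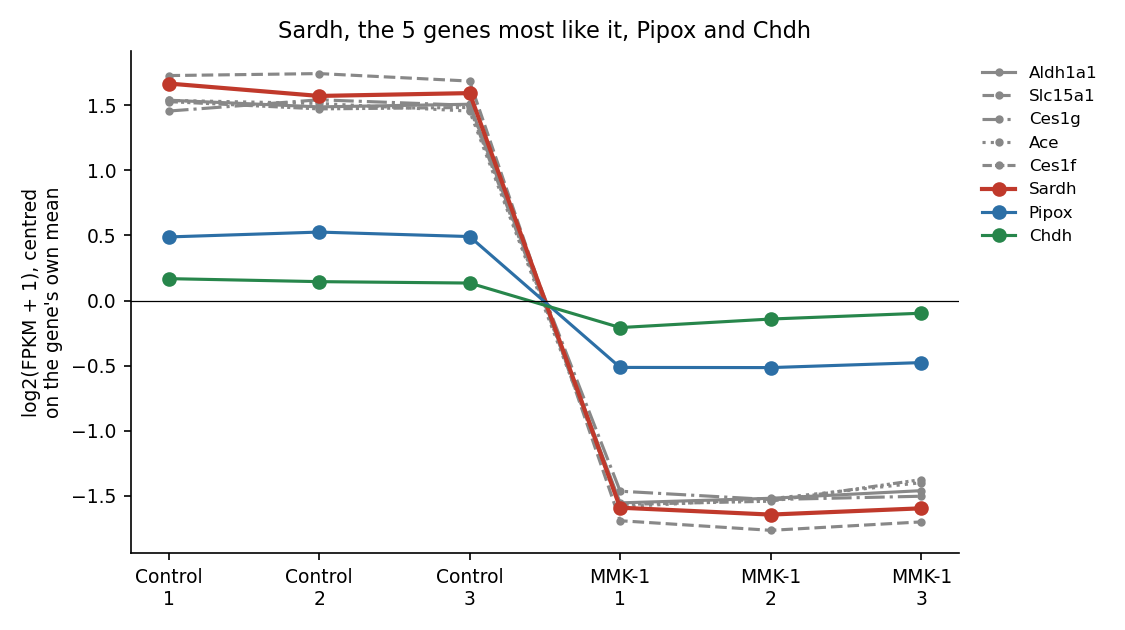
Log2(FPKM + 1) centred on each gene's own mean (y axis) in the 6 libraries (x axis) for Sardh, the 5 genes most like it (grey), Pipox and Chdh. The lines join libraries for reading only. Sardh and the grey genes differ by about 3 between groups, Pipox by about 1 and Chdh by 0.30, with every MMK-1 library below every control.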

How the data were processed

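RNA of 6 organoid libraries (3 control, 3 MMK-1) was sequenced by the study. The authors deposited FPKM values per gene, and the submitters' processing notes name mm10, HISAT2, HTSeq, DESeq2 and R 3.2.0, without versions of the other tools. FPKM values were whole multiples of 1 fragment (all within 0.02 of a fragment), from which the fragments of every gene and the library totals (35512739 to 37537463) were computed. For genes with very few fragments these counts can be off by a common factor. Intervals and the floor of 3 fragments cover counting error only.

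The test was limma 3.58.1 (limma-trend, R 4.3.3) applied to log2(FPKM + 1), so with a pseudocount of 1. The 10551 genes whose mean FPKM reached 1 were tested, with Benjamini-Hochberg adjustment over all of them. Genes with lower means were read from the same test over every gene above 0. Values are called lower or higher at an adjusted p of at most 0.05. Labels do not say that the libraries come from separate cultures, so p-values measure the spread between these libraries. Replicate numbers did not pair the libraries (correlations of same-numbered deviations -0.04 to 0.028). Alternatives were the scaling, the filter, the pseudocount, limma-voom on genes with at least 10 fragments in 3 libraries, a replicate block and leaving out each library. One list was also counted without 2 genes, chosen after seeing the data. The limma test and the recovery of fragments were tested on simulated data.

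The members, the 12 pathway lists and the 11 marker lists were chosen with earlier results of these data known. Named were all members, the genes acting next to a member, up to 3 genes in each direction and list past the threshold and a fold of 2, the nearest coding genes on either side, and the 5 genes most like Sardh. Positions are from GENCODE vM21 on GRCm38, start-site sequences from RefSeq (GRCm38.p6), matched by gene number for the 5 members. Python 3.11.15 with numpy 2.4.6, pandas 2.3.3 and matplotlib 3.10.9 was used.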

Additional observations from a re-analysis of the deposited data

How the results depend on the processing

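The calls of Chdh, Pipox and Gnmt kept their direction and their side of the threshold in all alternatives in which each was tested, limma-voom set aside for Gnmt. Its minimum of 10 fragments in 3 libraries was met by Gnmt through the MMK-1 libraries alone (10, 13 and 11 against 5, 6 and 4 in controls), so its call there is no support. Under the replicate block the log2 fold changes were the same by construction, -0.30 for Chdh, -1.003 for Pipox and 0.20 for Gnmt, and 2543 genes were lower and 5024 higher. Leaving out each library gave -0.32 to -0.27 for Chdh, -1.02 to -0.99 for Pipox, 0.18 to 0.22 for Gnmt and -3.24 to -3.19 for Sardh, and 2 members lower and 0 higher besides Sardh. Pipox was past a fold of 2 in 9 of 12 alternatives and just under it in the 3 that leave out control replicate 2, MMK-1 replicate 1 or MMK-1 replicate 2. The difference of Sardh was -3.28 with upper-quartile scaling, -5.08 with a pseudocount of 0.1, with and without the filter on low values, and -5.63 in limma-voom. Besides Sardh, 1 member, Gnmt, was higher without the filter and without it at a pseudocount of 0.1, where it enters by construction, and in limma-voom, where its entry depends on its MMK-1 level. Without the filter Bhmt enters as lower, on 1 fragment in each control, and is not read as a change. At a fold of at least 2, the genes higher numbered 675 with a pseudocount of 0.1, 1068 with no filter besides and 1394 in limma-voom, and the genes lower 802 with both changes and 931 in limma-voom. Leaving out each library gave 366 to 399 genes lower and 329 to 426 higher at that fold. Of 382 values of 32 other genes of the lists or beside the members, 359 kept their call and direction. Chpt1 missed it in 8 of 12 alternatives, Il17rb in 9, Etfdh without control replicate 2 and Dcp1a after upper-quartile scaling. Pemt passed it without control replicate 3 (0.26), and Pex6 without MMK-1 replicate 3 (-0.13) and after upper-quartile scaling (-0.20), where Arsb turned to -0.062 without passing. Depth limits Gnmt and Bhmt.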

Other observations

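The table's KEGG annotation of glycine, serine and threonine metabolism holds 37 genes, 5 of them members of the route. Of the other 32, 24 were tested, and 10 were lower and 10 were higher with MMK-1, or 13 and 8 after upper-quartile scaling. The monoamine oxidases Maoa (log2 fold change -1.15, limma adjusted p = 3.6e-08) and Maob (-1.39, limma adjusted p = 1.9e-07) were lower. Shmt2, which interconverts serine and glycine in mitochondria, went from 37.7, 38.0 and 39.0 FPKM to 81.4, 79.0 and 85.5 (1.08, limma adjusted p = 1.1e-07), and Psph, the last step of serine synthesis, was also higher (1.20, limma adjusted p = 4.8e-07).

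The nearest coding genes on either side of the members lay 123 to 439008 bases away and differed in direction. Those of the table beside Sardh were Vav2, 13767 bases away, and Slc2a6, 160395 bases away. Vav2 was at 5.16, 5.14 and 5.53 FPKM in controls and 3.54, 3.45 and 3.48 with MMK-1 (log2 fold change -0.48, limma adjusted p = 3.2e-05). Slc2a6 was at most at 0.0260 FPKM. Beside Pipox, Myo18a was lower by a log2 fold change of -0.29 (limma adjusted p = 0.00058), and Sez6 stayed under 0.065 FPKM. On one side of Chdh, Dcp1a, 439008 bases away, was higher by 0.20 (limma adjusted p = 0.006, or 0.0715 after upper-quartile scaling). Il17rb, 127 bases from Chdh and also at 0.20, was close to the threshold (limma adjusted p = 0.0359). Its groups overlapped, at 3.16, 2.74 and 2.54 FPKM in controls and 3.09, 3.48 and 3.61 with MMK-1. Over every gene above 0 its limma adjusted p was 0.102. Beside Gnmt, Pex6 lies 123 bases away and had a log2 fold change of -0.087 that did not pass the test (limma adjusted p = 0.146, or 0.0056 after upper-quartile scaling), and Cnpy3 was lower by -0.23 (limma adjusted p = 0.009). For Bhmt, Jmy, 116867 bases away, was higher by 0.42 (limma adjusted p = 0.00053). Arsb, 133669 bases away and at 0.031, did not pass the test (limma adjusted p = 0.587).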
